A study of Mus musculus with 6 samples.

Results

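Fibronectin (Fn1) and 9 further secreted matrix proteins were followed in a macrophage-enriched cell fraction of the healing mouse infarct: Emilin1, Emilin2, Ecm1, Spp1, Vcan, Tnc, Fbn1, Postn and Sparc. They were listed by name as proteins of the provisional and matricellular matrix, and the list was drawn up with earlier results of these data known. They are 10 of the 54532 genes in the count table, and all 10 passed the filter on low counts that left 14522 genes to be tested. The question was whether macrophages that lack the α5 integrin chain, which pairs with the β1 chain to form the classical fibronectin receptor, differ in their expression of matrix genes.

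The study compared 3 ITGA5 fl/fl (control) with 3 Myα5KO libraries of poly(A) RNA, all from C57BL/6 mice 12 weeks of age whose left anterior descending coronary artery had been permanently ligated 7 days before. Both genotypes carry floxed alleles of Itga5. Only the Myα5KO mice also carry LyzM-Cre, which recombines in lysozyme M-expressing myeloid cells (macrophages, monocytes and neutrophils). The controls were Cre-negative littermates, so in these libraries an effect of Cre itself cannot be told apart from that of Itga5 loss. The study set LyzM-Cre mice beside Cre-negative littermates at day 7. It reported no significant difference in ejection fraction, end-diastolic volume or vessel density, and describes no RNA measurement in that comparison. Per the methods of the study, hearts were processed singly, and cells were taken as the Ly6G-negative, CD11b-positive fraction on magnetic columns.

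Total counts per library lay between 15424451 and 18419287, with 21446 to 22338 genes detected. Counts scaled to a common library size by TMM (CPM) are given as mean ± SD of n = 3 libraries, and a negative log2 fold change means a lower level in Myα5KO. Itga5 fell to 8.02% of the control level (log2 fold change -3.64, edgeR adjusted p 4.42e-12). All 12 macrophage markers examined were detected in every library, Itgam (CD11b) at 171 to 250 CPM and Adgre1 (F4/80) at 1209 to 1394 CPM, and Ly6g was at 0 to 0.107 CPM. Collagen transcripts were also present in every library (Col3a1 433 to 629 CPM).

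Provisional matrix is the loose scaffold of plasma-derived and locally made proteins that replaces dead myocardium before collagen is laid down. Cells read it through integrins, CD44 and syndecans, and it is later replaced by cross-linked collagen. Matricellular proteins such as osteopontin, tenascin-C, periostin and SPARC add little mechanical strength but modulate adhesion, growth factor activity and matrix assembly, and in the infarct they are known as products of macrophages and of activated fibroblasts.

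Of the 4 genes whose transcripts were lower in Myα5KO libraries at an adjusted p of 0.05 (Fn1, Emilin2, Ecm1 and Postn), RefSeq promoter entries (GRCm38.p6) were at hand for Ecm1, Emilin2 and Postn. Their 250 bases before the RefSeq start are printed 5′ to 3′ on the strand of the gene, so that the DNA next to the measured transcripts can be seen. The windows are chr3:95739570-95739819, minus strand, for Ecm1, chr17:71311012-71311261, minus strand, for Emilin2, and chr3:54360857-54361106, plus strand, for Postn. Capitals mark matches on either strand to the AP-1 motif TGANTCA, the cyclic AMP response element TGACGTCA, the GC box GGGCGG or the TATA box TATAAA.
Ecm1: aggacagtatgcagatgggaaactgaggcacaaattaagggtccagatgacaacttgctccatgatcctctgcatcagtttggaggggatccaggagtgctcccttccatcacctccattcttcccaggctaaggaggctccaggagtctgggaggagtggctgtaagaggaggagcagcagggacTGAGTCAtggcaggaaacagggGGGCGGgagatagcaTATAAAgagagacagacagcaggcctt
Emilin2: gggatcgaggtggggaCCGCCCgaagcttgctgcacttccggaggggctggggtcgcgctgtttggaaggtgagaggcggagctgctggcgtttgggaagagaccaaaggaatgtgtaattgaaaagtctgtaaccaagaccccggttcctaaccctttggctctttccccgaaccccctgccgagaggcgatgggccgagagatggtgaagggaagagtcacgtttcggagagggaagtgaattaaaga
Postn: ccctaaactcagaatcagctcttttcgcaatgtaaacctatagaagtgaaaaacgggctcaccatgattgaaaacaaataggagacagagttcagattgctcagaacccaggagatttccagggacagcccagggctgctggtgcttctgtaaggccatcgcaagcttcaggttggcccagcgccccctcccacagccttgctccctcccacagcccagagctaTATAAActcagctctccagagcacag

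The Ecm1 window held an AP-1 match 64 bases, a GC box 42 bases and a TATA box 27 bases before the start. The Postn window held a TATA box 26 bases before the start. The Emilin2 window, which lies inside the annotated interval of the gene but before the RefSeq start used, held a GC box 234 bases before it. Of 27025 promoters of the same length, 6.87% held the AP-1 letters, 1.62% the cyclic AMP element, 32.9% the GC box and 12.97% the TATA box. Among the 9 of the 10 genes with an entry, the AP-1 letters occurred in 1 and the cyclic AMP element in 0. The TATA box letters occurred in the windows of Spp1, Ecm1, Postn and Tnc, and the GC box in those of Ecm1, Emilin2, Fbn1, Vcan and Tnc.

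Expression levels per gene length were compared in FPKM, which divides counts by gene length and library scale. Spp1, which encodes osteopontin, was by far the most abundant of the 10 in both genotypes, at 1540 FPKM in controls and 1644 FPKM in Myα5KO libraries. It ranked 20 and 17 among the 14522 tested genes. Fn1 followed at 288 FPKM in controls and 173 FPKM in Myα5KO, and its rank moved from 144 to 261.

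Ecm1 (198 and 151 FPKM), Sparc (103 and 90.2 FPKM) and Emilin2 (94.9 and 69.3 FPKM) formed a middle group in controls and Myα5KO, respectively. Postn (21.9 and 16.5 FPKM), Emilin1 (17.1 and 16.7 FPKM) and Fbn1 (9.04 and 7.17 FPKM) were lower. Tnc (3.14 and 2.14 FPKM) and Vcan (2.47 and 3.34 FPKM) were the least abundant of the 10. In ITGA5 fl/fl libraries the FPKM ranges of neighbours in this order overlapped for Fn1 and Ecm1, Sparc and Emilin2, and Tnc and Vcan. In Myα5KO libraries the overlapping neighbours were Fn1 and Ecm1, Emilin1 and Postn, and Vcan and Tnc, and the last 2 pairs stood in reverse order.

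**Figure D1:**
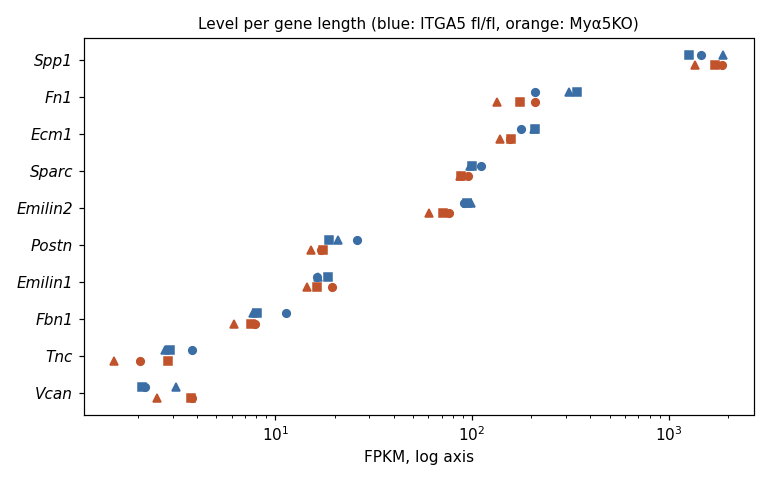
FPKM (log axis) of the 10 matrix genes in each library, ITGA5 fl/fl in blue and Myα5KO in orange, with circle, square and triangle for replicates 1, 2 and 3. Spp1 stands apart at 1274 to 1889 FPKM, while Tnc and Vcan lie between 1.52 and 3.77 FPKM.

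Fn1 had the largest decrease of the 10. The gene (ENSMUSG00000026193, GRCm38 chromosome 1, 71585520 to 71653200, minus strand, protein coding) encodes fibronectin, the main ligand of the integrin α5β1 and an early component of provisional matrix. Its expression was 2446, 4042 and 3653 CPM in the 3 controls and 2442, 2061 and 1593 CPM in the 3 Myα5KO libraries.

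ITGA5 fl/fl replicate 1 stood well below the other 2 controls and level with the highest Myα5KO library, so that the groups were separated by a margin of only a few CPM. The means were 3380 ± 832 CPM and 2032 ± 425 CPM (SD, n = 3 each), a level 60.1% of that in controls (log2 fold change -0.73, SE 0.17, 95% interval -1.10 to -0.37, edgeR adjusted p 0.0163). Of the 14522 genes tested, 5.19% were lower at this threshold.

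The call for Fn1 rested on the control libraries and on the test. Without ITGA5 fl/fl replicate 2 the log2 fold change was -0.59 (adjusted p 0.0781), without ITGA5 fl/fl replicate 3 it was -0.68 (adjusted p 0.0712), and without ITGA5 fl/fl replicate 1 it was -0.92 (adjusted p 0.00172). DESeq2 gave an adjusted p of 0.0654.

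The low Fn1 value of ITGA5 fl/fl replicate 1 was shared by genes of body cavity macrophages, the resident macrophages of the pleural and peritoneal spaces, in a list written after earlier results of these data were known. Summed over its 12 genes, these transcripts were at 261, 648 and 542 CPM in controls and 243, 179 and 225 CPM in Myα5KO libraries. ITGA5 fl/fl replicate 1 lay close to the Myα5KO libraries. The groups did not overlap (exact two-sided permutation p = 0.1, the smallest value that 3 against 3 libraries allow, adjusted p = 0.156 over 14 lists).

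Of these 12 genes, 9 were lower and 0 higher (edgeR), with a median log2 fold change of -1.003 beside 0.01 for all tested genes, and none was at 0 in any library. Serpinb2 (-2.45), Alox15 (-2.24), Prg4 (-2.24) and Saa3 (-1.42) had the largest log2 fold changes. Gata6, the transcription factor that defines these cells in mice, was at 3.35 to 4.29 CPM in controls and 3.03 to 3.37 CPM in Myα5KO and did not pass the test (log2 fold change -0.19, adjusted p 0.575).

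Expressed as a percentage of the summed body cavity markers, Fn1 was 935%, 624% and 674% in controls and 1006%, 1153% and 707% in Myα5KO libraries, so that on this scale the groups overlapped and the Myα5KO mean was the higher one. This ratio was chosen after seeing the data. The summed markers were themselves at 44.6% of controls in Myα5KO, so any gene that fell less rises on this scale. Each of the genes described had a higher Myα5KO mean on it, from 128% of controls for Fn1 to 275% for Vcan, with Spp1 at 212%. The ratio therefore cannot show what part of the Fn1 decrease came with these markers. The part of body cavity macrophages in the Fn1 result was not tested. In these bulk samples fewer cells of a type and less RNA per cell cannot be told apart.

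**Figure D2:**
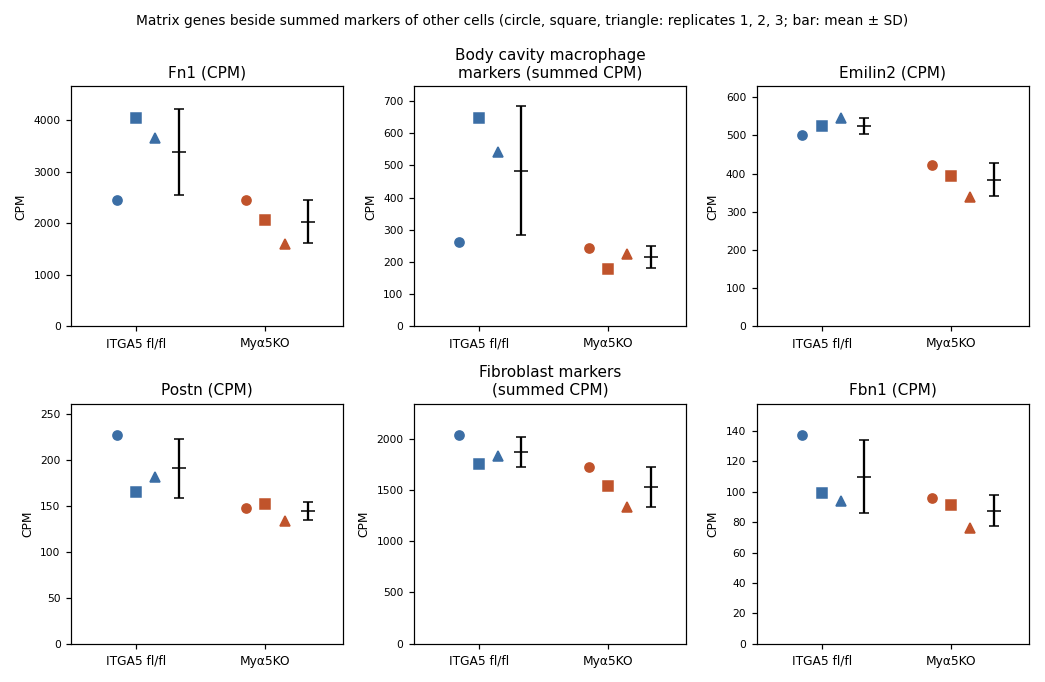
CPM of Fn1, Emilin2, Postn and Fbn1 beside the summed CPM of the body cavity macrophage markers and of the fibroblast markers, with 1 symbol per library (circle, square, triangle: replicates 1, 2, 3) and bars for mean ± SD. ITGA5 fl/fl replicate 1 is the lowest control for Fn1 (2446 CPM) and for the body cavity markers (261 CPM), and the highest control for Postn (227 CPM), Fbn1 (137 CPM) and the fibroblast markers (2034 CPM).

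Emilin2 and Ecm1 were also reduced in Myα5KO libraries, with less spread within groups than Fn1. Emilin2 (ENSMUSG00000024053, chromosome 17, 71252172 to 71311978, minus strand, protein coding) encodes an elastin microfibril interface protein. It was at 502, 525 and 546 CPM in controls and 421, 393 and 338 CPM in Myα5KO libraries.

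All Myα5KO libraries were below all controls. Means were 525 ± 22.0 and 384 ± 42.4 CPM (SD, n = 3 each), so that 73.2% of the control expression remained (log2 fold change -0.45, SE 0.08, 95% interval -0.63 to -0.27, edgeR adjusted p 0.00500). Emilin2 was lower at the threshold in 16 of 17 alternative analyses, the exception being FPKM without a filter (adjusted p 0.135), and remained so without any single library.

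Emilin1 (ENSMUSG00000029163, chromosome 5, 30913402 to 30921277, plus strand, protein coding), which encodes the related protein that binds elastic fibres in vessel walls, gave no such difference. Its values were 80.2, 92.7 and 81.5 CPM in controls and 95.7, 80.4 and 72.5 CPM in Myα5KO libraries, with the highest and the lowest value both in Myα5KO. The log2 fold change was -0.03 (SE 0.09, 95% interval -0.24 to 0.17, adjusted p 0.870). Changes of Emilin1 and Emilin2 were not tested against each other.

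Ecm1 (ENSMUSG00000028108, chromosome 3, 95734147 to 95739569, minus strand, protein coding) encodes extracellular matrix protein 1, a glycoprotein that binds perlecan and fibulins. It was at 446, 533 and 522 CPM in controls and 394, 400 and 355 CPM in Myα5KO libraries. The groups did not overlap, and ITGA5 fl/fl replicate 1 was again the lowest control.

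Ecm1 means were 501 ± 47.3 and 383 ± 24.2 CPM (SD, n = 3 each), Myα5KO being at 76.5% of controls (log2 fold change -0.39, SE 0.08, 95% interval -0.56 to -0.21, edgeR adjusted p 0.0103). Leaving out ITGA5 fl/fl replicate 2, the adjusted p was 0.0609 and without ITGA5 fl/fl replicate 3 it was 0.0562.

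The summed CPM of the 12 macrophage markers was also lower in every Myα5KO library (19219 ± 100 and 17520 ± 400 CPM, exact permutation p = 0.1), although single markers were divided, with Cd14 lower (log2 fold change -0.45), Fcgr1 higher (0.27) and 10 not passing the test. As a percentage of this sum, Emilin2 was 2.63%, 2.73% and 2.83% in controls and 2.45%, 2.19% and 1.94% in Myα5KO. Ecm1 was 2.34%, 2.77% and 2.71% and then 2.30%, 2.23% and 2.04%. Cd14 alone made up 1265 of the 1699 CPM by which the sums differed, and without it the sum was at 97.0% of controls. Both genes were lower without overlap relative to the macrophage markers, with Cd14 in the sum or left out, whereas Fn1 (12.8%, 21.0% and 18.9% against 14.2%, 11.5% and 9.14%) overlapped. Postn overlapped with Cd14 in the sum but not with Cd14 left out (1.57%, 1.13% and 1.27% against 1.08%, 1.07% and 0.948%). In CPM, 13.8% of all tested genes were lower without overlap. The sum without Cd14 was added after seeing the data, and the part of macrophage content in these values was not tested. Relative to the fibroblast markers described below, Emilin2 and Ecm1 overlapped between groups.

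Spp1 and Vcan did not share the decrease. Spp1 (ENSMUSG00000029304, chromosome 5, 104435118 to 104441050, plus strand, protein coding) encodes osteopontin, an integrin and CD44 ligand that infarct macrophages secrete. It was at 2405, 2117 and 3122 CPM in controls and 3071, 2832 and 2281 CPM in Myα5KO libraries.

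The ranges of Spp1 overlapped almost fully. The log2 fold change was 0.10 (SE 0.13, 95% interval -0.19 to 0.39, adjusted p 0.711), and Spp1 passed the threshold in 0 of 17 alternative analyses. Lipid-associated macrophage markers, with which Spp1 is often expressed, had 0 of 9 genes past the threshold. Among them were Apoe (log2 fold change -0.29, adjusted p 0.104), Gpnmb (-0.15) and Trem2 (-0.02). Of the 9 log2 fold changes 7 were negative and 2 positive, from -0.29 to 0.33, with a median of -0.02. Their sum was 34372 ± 2042 CPM in controls and 29522 ± 2938 CPM in Myα5KO (no overlap, exact permutation p = 0.1), most of it Apoe.

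Vcan (ENSMUSG00000021614, chromosome 13, 89655312 to 89742509, minus strand, protein coding) encodes versican, a large hyaluronan-binding proteoglycan that inflammatory monocytes express. It was at 31.4, 30.7 and 45.5 CPM in controls and 54.7, 54.2 and 36.8 CPM in Myα5KO libraries. ITGA5 fl/fl replicate 3 and Myα5KO replicate 3 each crossed into the range of the other group.

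The Vcan means were 35.9 ± 8.35 and 48.6 ± 10.2 CPM (SD, n = 3 each) and did not differ at the threshold (log2 fold change 0.43, SE 0.16, 95% interval 0.09 to 0.77, adjusted p 0.112). Without ITGA5 fl/fl replicate 3 it was 0.64 (adjusted p 0.0314), and without Myα5KO replicate 3 it was 0.60 (adjusted p 0.0208). DESeq2 gave an adjusted p of 0.381.

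As a sum, monocyte markers were higher in all 3 Myα5KO libraries (386 ± 59.3 and 493 ± 3.89 CPM, no overlap, exact permutation p = 0.1), with 4 of 8 higher and 0 lower. Among them were Ly6c2 (log2 fold change 0.71) and Ccr2 (0.58), which encodes the receptor that brings monocytes into the infarct. The list also holds Cd177 (0.74, called higher), better known as a neutrophil gene, and granulocyte transcripts were higher as well (given below). Of the genes that did not pass the test, F10 (-0.54, adjusted p 0.0679) and Chil3 (-0.06) had negative values. The part of monocytes in the Vcan values was not tested.

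Postn, Tnc, Fbn1 and Sparc, which cardiac fibroblasts are known to produce, all had negative log2 fold changes, and of these Postn passed the test. Postn (ENSMUSG00000027750, chromosome 3, 54361109 to 54391037, plus strand, protein coding) encodes periostin, a hallmark of activated cardiac fibroblasts. It was at 227, 165 and 182 CPM in controls and 148, 153 and 134 CPM in Myα5KO libraries.

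The lowest control exceeded the highest Myα5KO library for Postn. Means were 191 ± 32.3 and 145 ± 9.67 CPM (SD, n = 3 each), 75.8% of the control level (log2 fold change -0.40, SE 0.10, 95% interval -0.62 to -0.18, edgeR adjusted p 0.0261). The call was lost without ITGA5 fl/fl replicate 1, the highest library (log2 fold change -0.26, adjusted p 0.0802), without ITGA5 fl/fl replicate 3 (adjusted p 0.0552), without Myα5KO replicate 3 (adjusted p 0.0742) and with scaling by library totals (adjusted p 0.0508). On log2(FPKM + 1), Fn1 (adjusted p 0.112), Ecm1 (adjusted p 0.0589) and Postn (adjusted p 0.121) did not pass the limma test.

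Tnc (ENSMUSG00000028364, chromosome 4, 63959785 to 64047015, minus strand, protein coding) encodes tenascin-C, an anti-adhesive glycoprotein of injured tissue. It was at 29.2, 22.7 and 21.5 CPM in controls and 16.0, 22.2 and 12.0 CPM in Myα5KO libraries, on 228 to 436 counts per library. Myα5KO replicate 2 lay among the controls. The log2 fold change was -0.55 (SE 0.18, 95% interval -0.93 to -0.17, adjusted p 0.0742). It was -0.81 without Myα5KO replicate 2 (adjusted p 0.00779), and DESeq2 gave an adjusted p of 0.0305.

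Fbn1 (ENSMUSG00000027204, chromosome 2, 125300594 to 125507993, minus strand, protein coding) encodes fibrillin-1, the backbone of microfibrils. It was at 137, 98.9 and 93.8 CPM in controls and 95.6, 91.3 and 76.0 CPM in Myα5KO libraries. Apart from the high value of ITGA5 fl/fl replicate 1, the groups overlapped (log2 fold change -0.33, SE 0.12, 95% interval -0.59 to -0.06, adjusted p 0.130).

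Sparc (ENSMUSG00000018593, chromosome 11, 55394500 to 55423183, minus strand, protein coding) encodes a collagen-binding matricellular protein. The single-cell data of the study also place high Sparc expression in reparative macrophages of the infarct. Its cell source in these libraries was not tested. It was at 424, 384 and 371 CPM in controls and 363, 335 and 334 CPM in Myα5KO libraries. The groups did not overlap, but the difference was small and did not pass the test (log2 fold change -0.19, SE 0.07, 95% interval -0.35 to -0.04, adjusted p 0.126).

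Fibroblast markers were read beside these 4 genes. The sum of the 14 was 2034, 1750 and 1831 CPM in controls and 1723, 1537 and 1330 CPM in Myα5KO libraries, 81.7% of the control level, with no overlap (exact permutation p = 0.1, adjusted p = 0.156). Col6a2 was lower (log2 fold change -0.26, adjusted p 0.0345), the other 13 did not pass the test, and none was at 0. Of the 14 log2 fold changes 13 were negative, from Col5a1 (-0.34) to Thy1 (-0.0045), while that of Ddr2 was 0.23. Col1a1, Col1a2 and Col3a1 made up 280 of the 342 CPM by which the sums differed, and without them the sum was at 84.8% of controls, again with no overlap. That smaller sum still held the collagens Col5a1, Col5a2, Col6a1 and Col6a2. The markers that are not collagens had log2 fold changes of -0.28 (Pdgfra and Lum), -0.16 (Tcf21), -0.12 (Dpt), -0.07 (Dcn), -0.0045 (Thy1) and 0.23 (Ddr2). Whether they fell as a group was not tested.

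As a percentage of the summed fibroblast markers, Postn was 11.2%, 9.43% and 9.91% in controls and 8.60%, 9.93% and 10.1% in Myα5KO libraries. Tnc (1.44%, 1.30% and 1.17% against 0.927%, 1.44% and 0.902%), Fbn1 and Sparc likewise overlapped between groups on this scale. Vcan (1.55%, 1.76% and 2.49% against 3.17%, 3.53% and 2.77%) and Spp1 did not overlap and were higher in Myα5KO. These ratios were chosen after seeing the data, and most of the summed marker CPM is collagen RNA. The part of fibroblast RNA in the lower Postn values was not tested.

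**Figure D3:**
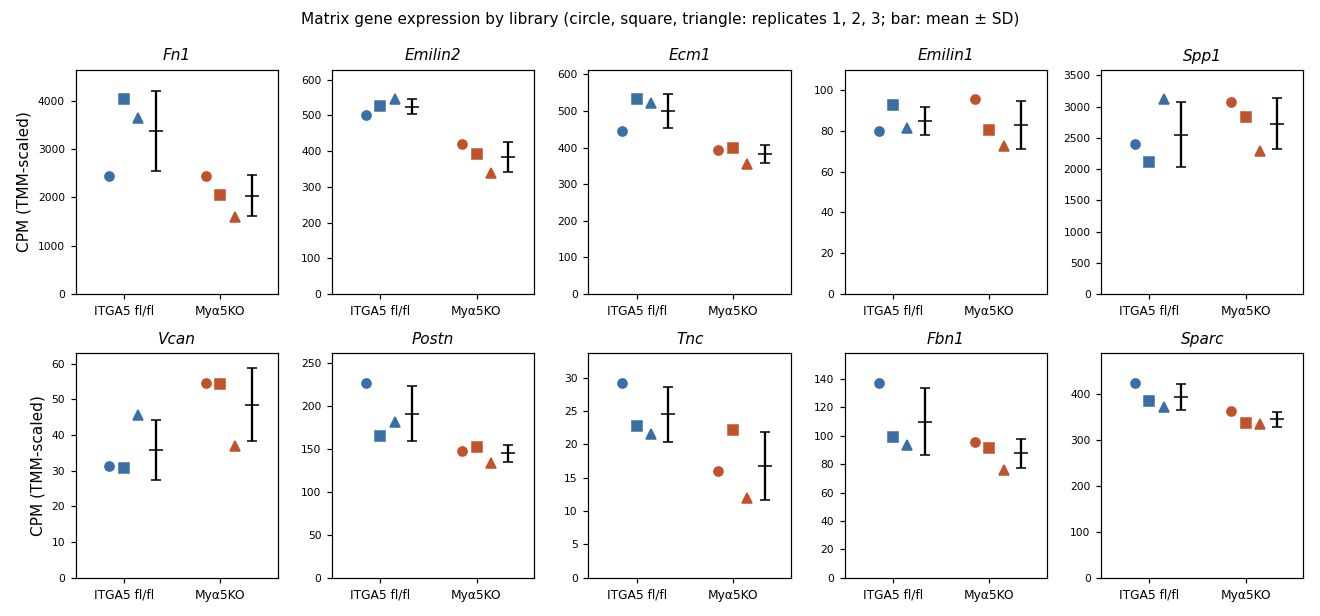
CPM of each of the 10 genes per library (circle, square and triangle for replicates 1, 2 and 3, axes from 0), with mean ± SD as bars. Fn1, Emilin2, Ecm1, Postn and Sparc show no overlap between groups, Fn1 by the narrowest margin, and the triangle of Myα5KO replicate 3 is the lowest Myα5KO value in all 10 panels.

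Considered side by side, 4 of the 10 genes were lower and 0 were higher, where 5.19% of all tested genes were lower and 3.56% higher. At an unadjusted p under 0.05, edgeR gave 7 lower and 1 higher, where 11.4% of all tested genes were lower and 11.7% higher at that threshold. DESeq2 also gave 4 lower and 0 higher, with Tnc in place of Fn1, and limma-voom gave 4 and 0. Log2 fold changes were negative for 8 of 10, against 47.2% of tested genes, with a median of -0.36 against 0.01. For 5 of 10 all Myα5KO libraries lay below all controls, which held for 13.8% of tested genes, and for 0 of 10 they lay above them, which held for 14.9%. Because of how the genes were chosen, these shares are a description.

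Myα5KO replicate 3 was the lowest of the Myα5KO libraries for 10 of 10 genes, whereas it was the lowest for 36.2% of all tested genes. The ITGA5 fl/fl libraries shared the lowest values evenly (4, 3 and 3 genes for replicates 1, 2 and 3). Without Myα5KO replicate 3, Fn1 (log2 fold change -0.59, adjusted p 0.0473), Emilin2 (-0.36, adjusted p 0.00665) and Ecm1 (-0.33, adjusted p 0.0242) were still lower, Postn was not called and Vcan was called higher.

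**Figure D4:**
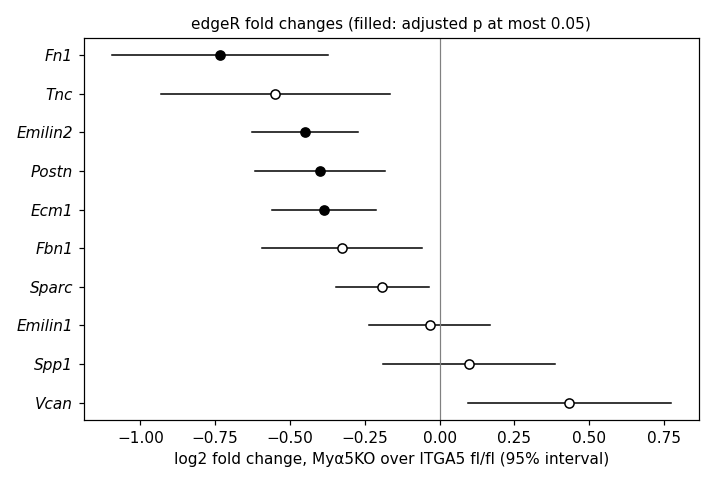
edgeR log2 fold change of each gene with its 95% interval, Myα5KO over ITGA5 fl/fl, with filled symbols for an adjusted p of 0.05 or less. The filled genes, Fn1 (-0.73), Emilin2 (-0.45), Postn (-0.40) and Ecm1 (-0.39), all lie left of 0, and Vcan (0.43) and Spp1 (0.10) lie right of it.

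To place the 10 genes among others of the matrix, 79 further matrix genes in 6 lists were examined, of which 70 were tested. Of these, 16 were lower and 1 was higher, where 5.19% of all tested genes were lower and 3.56% higher. A negative log2 fold change was found for 55, against 47.2% of all tested genes, with a median of -0.20 against 0.01. In 22 of them all Myα5KO libraries lay below all controls, which held for 13.8% of all tested genes. In 1 they lay above all controls, which held for 14.9%. Because of how the lists were chosen, these shares are a description, and they apply to each list below. The summed fibroblast markers were at 81.7% of controls in the same libraries. Which cells made the transcripts of these lists was not tested.

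Elastic fibre and microfibril genes, to which Emilin1, Emilin2 and Fbn1 are related by function, had 4 of 16 tested genes lower and 0 higher. The genes that fell were Ltbp1 (log2 fold change -0.88, adjusted p 0.00922), which encodes a protein that tethers latent TGF-β to the matrix, Eln (-0.57, adjusted p 0.00584), the gene of elastin, Mfap4 (-0.44, adjusted p 0.0211) and Fbln2 (-0.30, adjusted p 0.0242). Eln was at 217, 183 and 195 CPM in controls and 123, 115 and 161 CPM in Myα5KO libraries, with no overlap.

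Among other matricellular and adhesive glycoproteins, 4 of 23 were lower and 1 higher. Thbs1, which encodes thrombospondin-1, an activator of latent TGF-β and inhibitor of angiogenesis, was at 5799, 6196 and 6818 CPM in controls and 4668, 4595 and 3036 CPM in Myα5KO libraries. Every Myα5KO library was below every control (log2 fold change -0.61, SE 0.14, adjusted p 0.0135). Cthrc1 (-0.60), Ctgf (-0.36) and Lamc1 (-0.34) were also lower, and Spon1 (0.43, adjusted p 0.0169) was higher.

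Matrix cross-linking enzymes had 4 of 11 genes lower and 0 higher. Tgm2, which encodes the transglutaminase that cross-links fibronectin and fibrin and acts as a fibronectin co-receptor, was at 990, 963 and 947 CPM in controls and 680, 692 and 542 CPM in Myα5KO libraries. The groups were far apart (log2 fold change -0.60, SE 0.09, adjusted p 0.00141). The lysyl oxidases Lox (-0.62, adjusted p 0.0112), Loxl2 (-0.51, adjusted p 0.0380) and Loxl1 (-0.49, adjusted p 0.0154), which cross-link collagen and elastin, were lower too. F13a1, the transglutaminase of the factor XIII A chain, did not pass the test (-0.05, adjusted p 0.810).

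Of the hyaluronan and proteoglycan genes, 2 of 14 were lower, Bgn (biglycan, log2 fold change -0.37, adjusted p 0.0121) and Srgn (serglycin, -0.34, adjusted p 0.00900), and 0 were higher. Dcn and Lum stand in both this list and that of the fibroblast markers. Of the ADAMTS enzymes that cleave versican, 2 of 5 were lower, Adamts9 (-0.79, adjusted p 2.43e-04) and Adamts4 (-0.29, adjusted p 0.0304), and 0 were higher. The fibrinogen genes Fga, Fgb and Fgg, whose protein reaches the infarct from plasma, had 0 to 2 counts per library, and Vtn, the tested gene of the plasma-derived list, did not pass the test (-0.15, adjusted p 0.778).

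Receptors for these proteins were read in the same fit. Besides Itga5, the hyaluronan and osteopontin receptor Cd44 (1101, 1056 and 1115 CPM in controls, 878, 893 and 744 CPM in Myα5KO) and the fibronectin co-receptor Sdc4 (638, 682 and 766 CPM, then 495, 539 and 487 CPM) were lower, with log2 fold changes of -0.38 (adjusted p 0.0104) and -0.46 (adjusted p 0.00378). Neither overlapped between groups. The remaining 10 of the 13 tested receptors, among them the α5 partner Itgb1 (-0.09, adjusted p 0.503), Itgav (-0.16, adjusted p 0.237) and Itgb3 (0.07, adjusted p 0.810), did not pass the test.

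**Figure D5:**
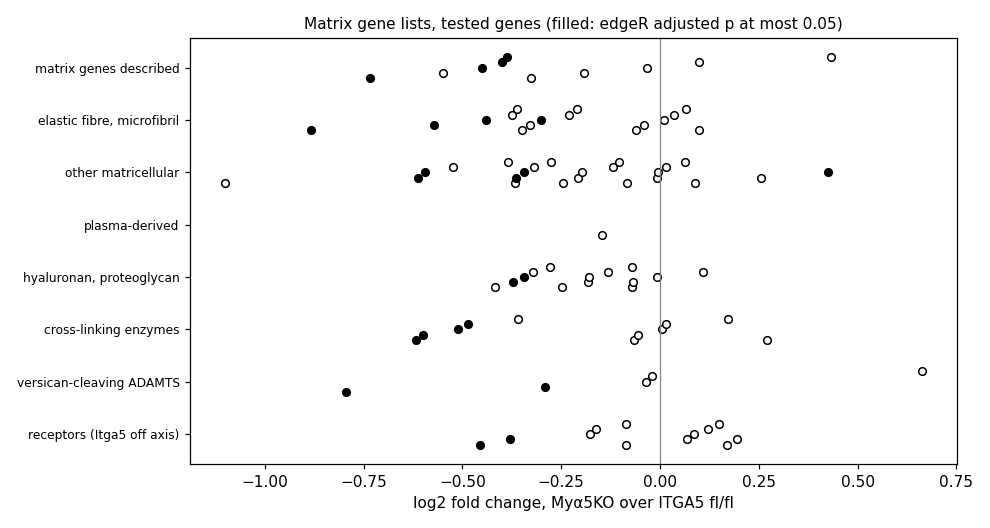
edgeR log2 fold changes of the tested genes of each matrix and receptor list, Myα5KO over ITGA5 fl/fl, 1 point per gene, filled at an adjusted p of 0.05 or less. Of the filled points in the lists of further matrix genes, 16 lie left of 0 and 1 (Spon1, 0.43) lies right of it, and Itga5 (-3.64) lies beyond the axis.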

How the data were processed

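Per the labels and the methods of the study, reads of 6 libraries were aligned to the mouse genome (GRCm38.p6, mm10) with TopHat2 2.0.9 and counted per gene with HTSeq 0.6.1, and the submitters' processing notes also name Cufflinks 2.1.1. The deposited counts are whole numbers, not normalized. The deposited FPKM equal the count divided by the deposited gene length and a constant per library proportional to the DESeq2 size factor. Handling of strand and of multi-mapped reads is not given in the sources used here. Spp1 overlaps Gm42793 on the same strand (1082 counts in all), and the genes overlapping the other 9 held at most 58. Sums without Cd14 or without Col1a1, Col1a2 and Col3a1 were added after seeing the data. Each of the 12 value columns was matched to a sample by its name, and 0 columns had no sample. Columns of the authors' own comparisons were not used.

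Counts were tested with edgeR 4.0.16 (R 4.3.3): TMM scaling, default expression filter (minimum count 10, minimum total 15), quasi-likelihood test, no covariate, Benjamini-Hochberg adjustment over 14522 genes, calls at 0.05. P-values are two-sided. Itga5 and all 10 genes are described. Of each other list up to 4 called genes in each direction are named, or the gene with the highest FPKM where none was called, and any other name was picked with its value known. Some called markers are not reported here. The genes and lists were chosen with earlier results of these data known. Summed markers of 14 cell type lists were compared by an exact permutation test. Alternatives were DESeq2 1.42.0, limma-voom and limma 3.58.1 on log2(FPKM + 1) and log2(FPKM + 0.1) (for genes at an FPKM of 1 or more in 3 or more libraries, or unfiltered), median-ratio and library-total scaling, a count filter left out or set to 10 counts in each library, a replicate block, each library left out, and an adjusted p of 0.01. The fit was tested on simulated data of 14522 genes in this design: it called 35 of 75 genes changed by 0.5 on the log2 scale (46.7%), 50 of 64 changed by 1 (78.1%) and 58 of 61 changed by 2 (95.1%), and 6 of its 149 calls were false. Libraries of the same genotype differed by more than sampling noise (chi-square per degree of freedom of at least 5.59). Counts carry no molecular identifiers. Where RefSeq listed more than 1 start, the promoter next to most annotated coding transcript starts was used.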

Additional observations from a re-analysis of the deposited data

How the results depend on the processing

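With 3 libraries per group, changes near 0.5 on the log2 scale were often missed in simulation. The simulation held fewer changed genes (149 calls) than were called in the data (1271), so the share it missed need not hold for the data. Of the 10 genes, 4 were lower and 0 higher, and of the other matrix genes 16 were lower and 1 higher. The counts, in the order genes lower, genes higher, other matrix genes lower and other matrix genes higher, were 1, 0, 4 and 0 with limma on log2(FPKM + 1) and on log2(FPKM + 0.1), and 0, 0, 0 and 0 with limma on FPKM without a filter, where 5 of the 10 and 20 other matrix genes had an unadjusted p under 0.05 and a lower level. They were 3, 1, 11 and 1 with library totals, 6, 1, 18 and 1 without a count filter, and 1, 0, 6 and 0 at an adjusted p of 0.01. Where 1 gene was left, it was Emilin2. Calls over all genes moved as well, from 1271 to 472 and 448 on the filtered FPKM scales, 10 on FPKM without a filter, 1730 with library totals, 1738 without a count filter, 470 at an adjusted p of 0.01, and 616 to 1091 with single libraries left out. When single libraries were left out, the counts of matrix genes, in the order given above, ranged from 1 to 5, 0 to 1, 9 to 14 and 0 to 2. The cause was not tested. Without ITGA5 fl/fl replicate 3, Emilin2 was the gene still lower and Vcan was higher, without ITGA5 fl/fl replicate 2 Emilin2 and Postn were still lower, and without ITGA5 fl/fl replicate 1 9 other matrix genes were lower, and without Myα5KO replicate 2 there were 10. Library totals moved the median log2 fold change of all genes from 0.01 to 0.10.

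The sign of Emilin1 turned with library totals (0.047), without ITGA5 fl/fl replicate 2 (0.04) and without Myα5KO replicate 3 (0.054), and that of Spp1 turned without ITGA5 fl/fl replicate 2 (-0.019). With single libraries left out, Spp1 ranged from -0.019 to 0.27 and Emilin1 from -0.15 to 0.054. None of these was called. Same-numbered libraries did not deviate together (correlations 0.05, -0.09 and 0.04). The labels do not say whether the numbers pair hearts, and correlations from so few libraries cannot decide it, so the main fit treated them as unpaired. With the replicate number as a block, 6 of the 10 genes were lower and 0 higher, Tnc (adjusted p 0.0429) and Fbn1 (adjusted p 0.0363) being added, and 15 other matrix genes were lower and 1 higher.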

Other observations

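Markers of further cell types were summed per library. Granulocyte transcripts were higher in every Myα5KO library (203 ± 20.5 and 303 ± 64.3 CPM), with 5 of 8 genes higher and 0 lower. Among the higher genes were Ltf (log2 fold change 2.05), Camp (1.89), Ngp (1.85) and S100a9 (1.55), which encode granule and cytosolic proteins of neutrophils and their precursors. Of the 8, 1 had a negative log2 fold change (-0.65) and did not pass the test. B-cell transcripts were also higher (134 ± 20.8 and 190 ± 42.4 CPM), with Cd79b (log2 fold change 0.57) among the genes past the threshold. Cardiomyocyte transcripts were scarce, and their sum was lower (23.3 ± 1.49 and 17.2 ± 2.69 CPM). Most of that difference lay in Actc1 (5.46 and 2.67 CPM, log2 fold change -1.03) and Tnnt2 (5.80 and 3.59 CPM, -0.69), the genes called lower among 9. The other 7 were not called, and over the 9 genes 6 log2 fold changes were negative and 3 positive. Each of these 3 sums had an exact permutation p of 0.1 and an adjusted p of 0.156, as did the T and NK cell sum (22.1 ± 1.91 and 24.9 ± 0.250 CPM, 0 of 3 genes called, with Cd4 the highest).

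For the mural, endothelial, mesothelial, platelet and dendritic cell lists the sums overlapped between groups (exact permutation p between 0.3 and 0.6). Among mural markers 0 of 8 were called (Rgs5 -0.20), among endothelial markers Kdr was higher (0.26) as 1 of 9, among mesothelial markers 0 of 5 were called (Wt1 -0.31), among platelet markers 0 of 4 (Pf4 -0.20, with Gp1bb at 0 in every library), and among dendritic cell markers Cd209a was higher (0.57) as 1 of 7.

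The tested genes with a mean of at least 100 counts whose log2 CPM followed Fn1 most closely over the 6 libraries were Cd80 (Pearson r 0.992), Asb6 (0.992) and Gm43737 (0.988), out of 9613 candidates. The coefficients describe 6 libraries that share the contrast between genotypes. Their own log2 fold changes were -0.20, -0.13 and -0.46, and none passed the test.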
